A study of Mus musculus with 2 samples.

Results

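Core and linker histone genes were examined in testes of 17 day old mice, as 13 genes read by 17 probe sets, of 12393 genes and 20380 probe sets that each had 1 gene symbol on the array. They were chosen by name, as every single-symbol probe set whose symbol has the form of a core or linker histone gene, with the MHC genes whose symbols begin H2- left out. The tissue came from UBR2-/- mice, which lack the ubiquitin ligase UBR2, and from wild type mice, all on a mixed background of the strains 129SV and C57BL. Each genotype was measured on 1 Affymetrix mouse genome 430A 2.0 array, for which 2 testes of different littermates are named; pooling of their RNA was neither stated nor denied. With 1 array per genotype there were no replicates and no test was possible, so every difference below describes these 2 arrays. Values are signals, the linear brightness that the MAS5 method assigns to a set of short probes, on the scale deposited by the authors.

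Histones are the proteins on which DNA is wound. A nucleosome core holds H2A, H2B, H3 and H4, and a linker histone of the H1 family binds where DNA enters and leaves it. Replication-dependent histone genes lie in clusters, are transcribed mainly while DNA is copied, and make messenger RNAs that typically end in a stem-loop and not in a poly(A) tail. Variant histones are made throughout the cell cycle from genes outside those clusters, mostly as polyadenylated messenger RNA, and take on set tasks: H2A.Z sits at promoters, and H2A.X is phosphorylated around DNA breaks and on the unpaired sex chromosomes of spermatocytes. Male germ cells also make testis histones, among them the linker histone H1t of spermatocytes, before most histones give way to protamines in spermatids. UBR2 has been studied for its part in the ubiquitination of histones in male meiosis, and the comparison asks whether messenger RNA levels of the histones themselves differed when it was missing. The labels' protocols say that biotinylated RNA was made from total RNA, and do not name the primer, so how well RNA without a poly(A) tail was labelled is not known here.

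The 13 genes were sorted into 7 replication-dependent genes (H1f2, H1f4, H2ac19, H2bc18, H2bc22, H3c4 and H3c7), 4 variant genes (H1f10, H2ax, H2az1 and H2az2) and 2 germ cell linker histone genes (H1f6, which encodes H1t, and H1f8, the linker histone of oocytes). No H4 gene was among the members. A RefSeq gene table of assembly GRCm38.p6, used for names and chromosomes only, placed 6 of the 13 on chromosome 13, namely H1f2, H1f4, H1f6, H2bc22, H3c4 and H3c7, which belong to the large histone cluster. It placed 3 on chromosome 3, namely H2ac19, H2bc18 and, outside the histone cluster there, H2az1.

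The stretches just before the start of linker histone genes are shown for the promoter layout that H1f2, H1f4 and H1f6 share. RefSeq sequences (assembly GRCm38.p6) were found for 11 of the 13 members. The 130 bases before the annotated start are printed 5′ to 3′ on the strand of the gene, with capitals for matches, on either strand, to the H1 box (AAACACA), the CCAAT box (CCAAT), the TATA box (TATAAA or TATATA) and the octamer of H2B promoters (ATTTGCAT).
H1f2 (GRCm38.p6, chr13:23738677-23738806, plus strand): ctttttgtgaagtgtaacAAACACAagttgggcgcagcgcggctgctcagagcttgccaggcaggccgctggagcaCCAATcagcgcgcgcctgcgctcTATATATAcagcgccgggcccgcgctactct
H1f4 (GRCm38.p6, chr13:23622559-23622688, minus strand): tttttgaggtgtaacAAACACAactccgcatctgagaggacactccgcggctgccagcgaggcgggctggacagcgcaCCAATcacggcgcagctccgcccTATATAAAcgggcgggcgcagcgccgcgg
H1f6 (GRCm38.p6, chr13:23695681-23695810, plus strand): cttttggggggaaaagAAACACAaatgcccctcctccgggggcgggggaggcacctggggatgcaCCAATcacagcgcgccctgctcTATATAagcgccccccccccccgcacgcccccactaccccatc
H1f10 (GRCm38.p6, chr6:87981483-87981612, minus strand): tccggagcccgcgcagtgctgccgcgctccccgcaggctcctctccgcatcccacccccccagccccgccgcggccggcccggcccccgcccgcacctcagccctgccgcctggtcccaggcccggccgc
In H1f2, the H1 box began 112 bases before the start, the CCAAT box 54 bases and the TATA letters 31 bases before it. In H1f4 they began 115, 52 and 29 bases before the start. In H1f6 they began 114, 65 and 43 bases before the start, in the same order. The 130 bases of the variant gene H1f10 held none of these letters, which says nothing of what binds there.

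Core histone stretches are shown next, for the member farthest from 0 (H2ac19), a replication-dependent H2B gene below the floor (H2bc18), and the variant H2az1.
H2ac19 (GRCm38.p6, chr3:96240375-96240504, minus strand): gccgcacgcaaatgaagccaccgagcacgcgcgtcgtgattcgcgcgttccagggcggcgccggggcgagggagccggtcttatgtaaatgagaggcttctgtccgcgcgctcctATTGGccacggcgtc
H2bc18 (GRCm38.p6, chr3:96269570-96269699, plus strand): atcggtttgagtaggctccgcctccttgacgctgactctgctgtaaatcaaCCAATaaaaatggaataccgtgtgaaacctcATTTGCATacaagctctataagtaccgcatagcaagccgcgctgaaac
H2az1 (GRCm38.p6, chr3:137864357-137864486, plus strand): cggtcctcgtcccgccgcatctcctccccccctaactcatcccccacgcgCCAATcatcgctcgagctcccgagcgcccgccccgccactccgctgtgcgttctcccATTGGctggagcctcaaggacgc
H2bc18 held the octamer, beginning 48 bases before its start, in the same orientation as the gene, and a CCAAT box beginning 79 bases before it. H2ac19 held the CCAAT letters on the opposite strand, beginning 15 bases before the start, and H2az1 held them on both strands, beginning 80 and 23 bases before it. Over the 250 bases before the start, CCAAT was found in 10 of the 11 histone promoters, against 33.8% of 32851 promoters in the RefSeq table. The H1 box was found in 3 of the 11, all linker histone genes, against 6.25% of all promoters. Either TATA form was found in 5 of the 11, against 15.6% of all promoters, and the octamer in 1 of the 11, against 1.60%. The forms TATAAA and TATATA can overlap each other, as in H1f4. A match is a string of letters and not a measured binding site.

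The targeted gene was looked at before the histones. Ubr2 had a signal of 14.3 on the UBR2-/- array and 57.2 on the wild type array, and was at least 2.32-fold lower by the floor described next, from 1 probe set whose place relative to the deleted part is unknown here. As a floor, the 40th percentile of the array was taken, 24.7 for UBR2-/- and 24.4 for wild type; lower signals were raised to it, and a gene was compared where its mean signal reached 24.55. Each gene was read by its brightest probe set, and ratios are UBR2-/- over wild type. Of 8091 compared genes, 3.52% were at least 2-fold lower and 0.346% at least 2-fold higher, and log2 ratios had a median of 0.07 and quartiles of -0.17 and 0.28. As a yardstick, the log2 ratios of pairs of probe sets for the same gene differed with a spread of 0.26 for dim probe sets (mean signal under 97.3), 0.20 for intermediate and 0.14 for bright ones (260.6 and over), given per probe set and derived from the median deviation. The yardstick is a typical size of disagreement and not a limit, so a value beyond it is not unusual. By ordinary standard deviation the same pairs gave 0.28, 0.22 and 0.17 in the same order. Both measures leave out all error between arrays and animals.

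Of the 13 histone genes, 7 were bright enough to be compared and 6 were below the floor on both arrays. Of the 7, 0 were at least 2-fold lower, against 3.52% of all compared genes, and 0 at least 2-fold higher, against 0.346%. At a threshold of 1.5-fold, 0 of the 7 were lower, against 7.71% of all compared genes. With 7 genes a count of 0 is near that background. The count at 1.5-fold is a close one, as H2ac19 was just short of it at 1.48-fold lower. Scaled to the spike-in control probe sets, which lowers every ratio, H2ac19 was beyond it, with a log2 ratio of -0.92. The median log2 ratio of the 7 was -0.08, against 0.07 for all compared genes, with 5 of the 7 below and 2 above the value of all genes. The genes that passed were above the floor on both arrays, so no member was compared through 1 genotype alone.

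**Figure D1:**
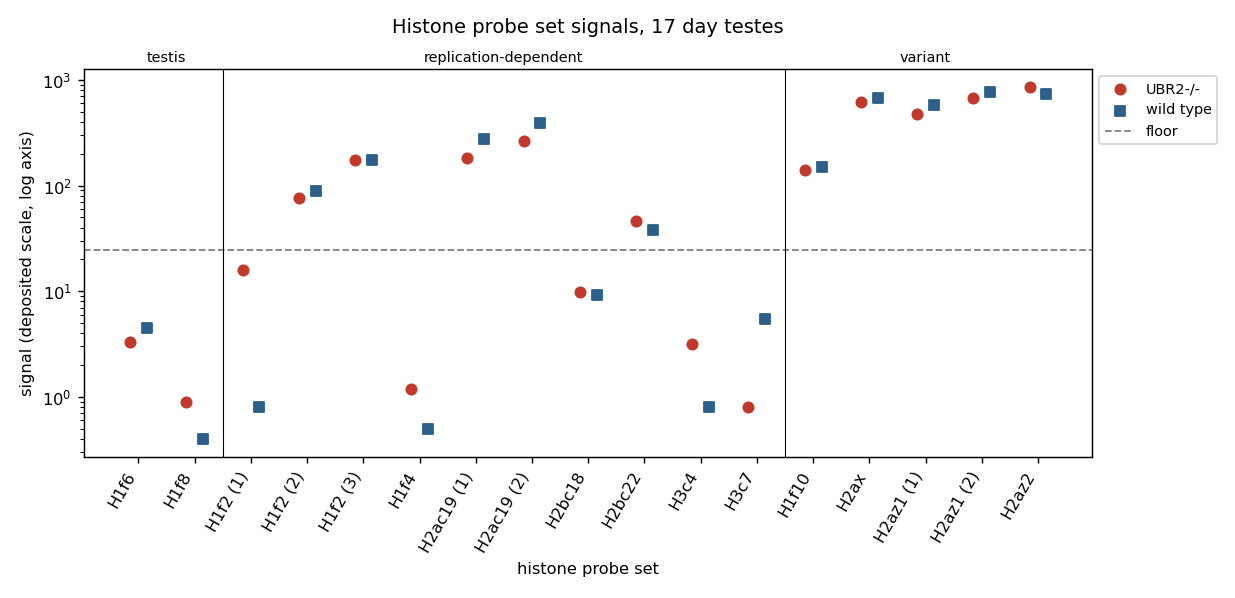
Signals of all 17 histone probe sets on a log axis, with UBR2-/- as circles and wild type as squares, 1 array each and no error bars; numbers in brackets order the probe sets of a gene from dim to bright, and the dashed line is the mean floor of 24.55. The 4 variant genes, H2ac19, H2bc22 and 2 of 3 probe sets of H1f2 lie above the floor on both arrays, and the others lie below it on both.

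The germ cell linker histones gave no signal above the floor. H1f6 had 3.3 on the UBR2-/- array and 4.5 on the wild type array. H1f8, which is known from oocytes and early embryos, had 0.9 on the UBR2-/- array and 0.4 on the wild type array. Each was read by 1 probe set, no fold is given for either, and no statement on H1t can be made from these arrays. This stands beside other spermatocyte genes that were bright in the same RNA: Sycp3, which builds the chromosome axes of meiosis, had 2954.7 on the UBR2-/- array and 2904.1 on the wild type array, and Ldhc, the lactate dehydrogenase of late spermatocytes, had 430.5 on the UBR2-/- array and 3709.3 on the wild type array. Whether the H1f6 probe set can read the transcript was not tested.

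Among replication-dependent genes, H2ac19 was the member farthest from 0. H2ac19 encodes an H2A core histone. Its brighter probe set had a signal of 265.3 on the UBR2-/- array and 393.8 on the wild type array, a log2 ratio of -0.57, or 1.48-fold lower. Its other probe set had 183.7 on the UBR2-/- array and 275.2 on the wild type array, a log2 ratio of -0.58. The probe sets thus gave nearly the same ratio, 0.013 apart on the log2 scale, and both ratios were larger than the disagreement of 0.14 and 0.20 for probe sets of their brightness. Relative to the median of all compared genes H2ac19 lay at -0.64, and 7.93% of compared genes had a lower log2 ratio, so many genes were as far down. Core histone genes have near-identical copies, and the name of the brighter probe set (ending in _x_at) marks probes that can bind several transcripts, so the signal may include copies of H2ac19. The 2 probe sets read the same RNA and are not replicates.

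The linker histone gene H1f2, which encodes the somatic H1c, had nearly equal signals. Its brightest probe set read 173.6 on the UBR2-/- array and 175.4 on the wild type array, a log2 ratio of -0.01. A dimmer probe set read 75.6 on the UBR2-/- array and 89.5 on the wild type array, with a log2 ratio of -0.24, inside the disagreement of 0.26 for dim probe sets. The last of its 3 probe sets was below the floor, at 15.8 on the UBR2-/- array and 0.8 on the wild type array. Counted from 0, H1f2 thus lay within the yardstick for its brightness on both readable probe sets. Counted from the median of all compared genes, 0.07, the dimmer probe set lay beyond its 0.26.

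H2bc22, an H2B core histone gene, was the dimmest compared member and lay on the other side of 0. It had 46.2 on the UBR2-/- array and 37.8 on the wild type array, a log2 ratio of 0.29, or 1.22-fold higher. It was read by 1 probe set of the _x_at kind, and the ratio was little above the disagreement of 0.26 for dim probe sets. Relative to the median of all compared genes it lay between 0.16 and 0.22 over the settings tried, inside that disagreement. H2ac19 and H2bc22 therefore pointed opposite ways among core histones, and the 3 compared replication-dependent genes had a median of -0.01.

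The other 4 replication-dependent genes were below the floor on both arrays. The linker histone gene H1f4 had 1.2 on the UBR2-/- array and 0.5 on the wild type array. The H2B gene H2bc18 had 9.9 on the UBR2-/- array and 9.3 on the wild type array. Both H3 genes were as dim. H3c4 had 3.2 on the UBR2-/- array and 0.8 on the wild type array, and H3c7 had 0.8 on the UBR2-/- array and 5.5 on the wild type array. Signals this low carry no order, and it cannot be told from them whether the RNA was absent or poorly labelled. H1f4 thus had no signal above the floor. Its promoter holds the same boxes as that of H1f2, whose dimmest probe set was also below the floor. A relation between promoter letters and signal was not tested.

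**Figure D2:**
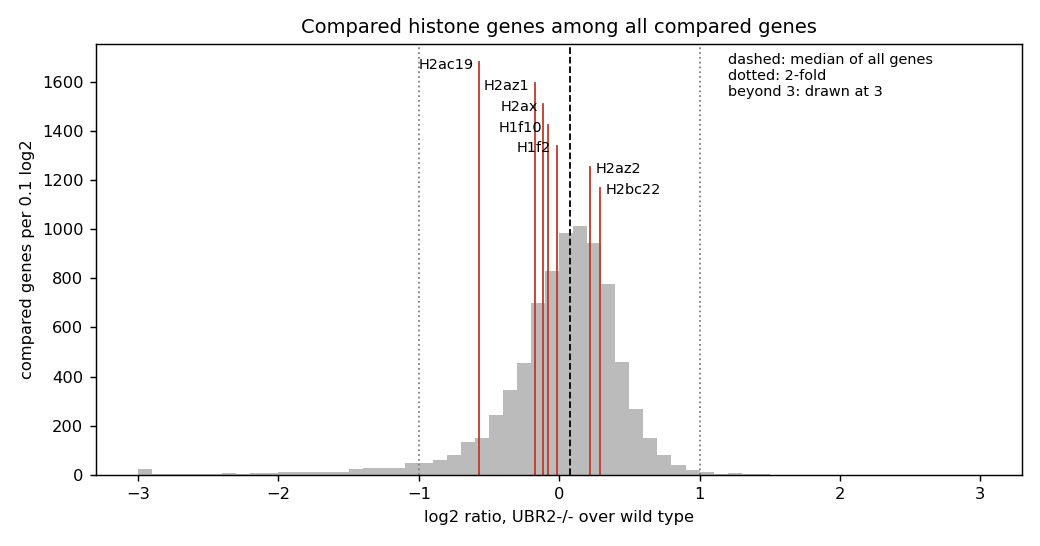
Distribution of log2 ratios (UBR2-/- over wild type) of all 8091 compared genes in bins of 0.1, with the 7 compared histone genes as vertical lines whose heights serve only the labels; the dashed line is the median of all genes (0.07) and dotted lines mark 2-fold. All 7 histone genes lie between the dotted lines, H2ac19 at -0.57 and the others between -0.17 and 0.29.

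All 4 variant histone genes were compared, none of them 2-fold off, and 3 lay below 0. Their median log2 ratio was -0.10. H2ax encodes H2A.X, whose phosphorylated form marks DNA breaks and the sex body. H2ax had 617.3 on the UBR2-/- array and 667.3 on the wild type array, a log2 ratio of -0.11, which is inside the disagreement of 0.14 for bright probe sets. H1f10, a replication-independent linker histone gene, had 140.4 on the UBR2-/- array and 148.7 on the wild type array, a log2 ratio of -0.08, inside the 0.20 for intermediate probe sets. Both genes thus differed between the arrays by less than this yardstick when counted from 0. Relative to the median of all compared genes, H2ax lay between -0.19 and -0.17 over the settings tried, beyond 0.14. For bright probe sets the ordinary standard deviation was 0.17, close to these values. H1f10 lay between -0.16 and -0.15 relative to the same median, inside 0.20.

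The genes for the variant H2A.Z lay on either side of 0. H2az1 had 678.0 on the UBR2-/- array and 762.7 on the wild type array in its brighter probe set, a log2 ratio of -0.17, or 1.12-fold lower. Its other probe set had 477.5 on the UBR2-/- array and 578.3 on the wild type array, a log2 ratio of -0.28, or 1.21-fold lower. H2az2, which encodes a second, almost identical H2A.Z protein from another chromosome, had 858.3 on the UBR2-/- array and 736.5 on the wild type array, a log2 ratio of 0.22, or 1.17-fold higher. The ratios of H2az2 and H2az1 were 0.39 apart on the log2 scale, against a spread of 0.19 for a difference between bright probe sets. H2az2 had 1 probe set, and there was no replicate check of this gap. With scaling to the spike-in controls, which lowers every ratio, H2az2 and H2bc22 also lay below 0, at -0.13 and -0.06. Their distance from the median of all genes stayed above 0, but that scaling shifts the median almost equally and could hardly change it.

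**Figure D3:**
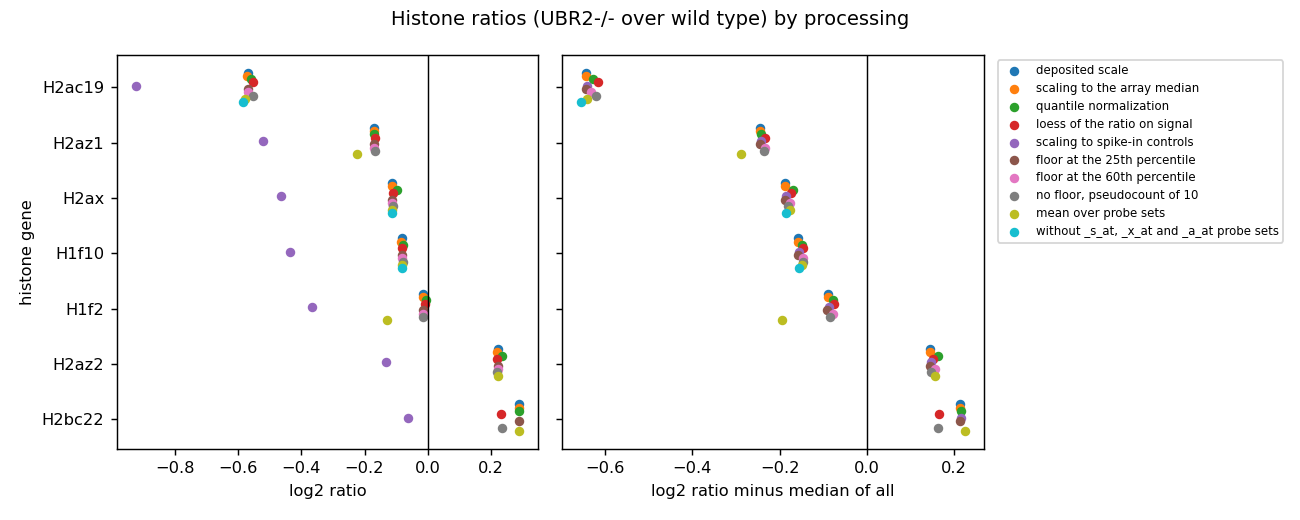
Log2 ratio (UBR2-/- over wild type) of each compared histone gene under the deposited scale and 9 other ways of processing, as ratios on the left and minus the median of all compared genes on the right; each point is 1 setting, and some genes lack a point where no probe set was left or the gene was below the floor. Only spike-in scaling moves the left-hand values far, to -0.92 for H2ac19, and on the right H2ac19 stays between -0.65 and -0.62. On the right the shift by spike-in scaling nearly cancels, because it moves the median of all genes too.

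Genes that make, process and chaperone histones were set beside the members. All 26 genes of this list found on the array were compared, 0 were 2-fold off in either direction, and the median log2 ratio was 0.04, against 0.07 for all compared genes. The brightest were Rbbp4 and Rbbp7, histone-binding subunits of several chromatin complexes, at -0.05 and 0.26, and the probe sets of Rbbp4 ranged from -0.26 to 0.14. The gene nearest to the threshold, named after its values were seen, was Znhit1, a subunit of the SRCAP complex that places H2A.Z in chromatin, with 387.9 on the UBR2-/- array and 774.9 on the wild type array. Its log2 ratio was -0.998, just short of 2-fold, and that of its other probe set -0.91. The catalytic subunit gene Srcap, also named after its values were seen, had 52.2 on the UBR2-/- array and 76.0 on the wild type array, a log2 ratio of -0.54. Anp32e, a chaperone that takes H2A.Z out of chromatin, had 0.20.

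For the replication-dependent genes the same list holds Slbp, which binds the stem-loop at the end of their messenger RNA. Slbp had 1327.6 on the UBR2-/- array and 1591.6 on the wild type array, a log2 ratio of -0.26. Lsm10, a part of the small nuclear RNP that cuts histone messenger RNA, had -0.41, and Casp8ap2, which is needed for histone transcription, had -0.38. Other genes of histone messenger RNA processing lay above 0, with Cpsf3, Cpsf1, Cpsf2 and Cstf2, which also serve other messenger RNAs, at 0.04, 0.09, 0.19 and 0.24, and Eri1, a nuclease that trims the stem-loop end, at 0.06. Nasp, a chaperone of H3, H4 and linker histones, had 995.4 on the UBR2-/- array and 1327.0 on the wild type array, a log2 ratio of -0.41 in the brighter and -0.72 in the other probe set. The chaperone genes Asf1a and Asf1b had 0.12 and 0.07, Chaf1b of the assembly factor CAF-1 had 0.00, and Hira, which places H3.3, had 0.09. Lower on the same list were Ubn1 at -0.46, Supt16 at -0.39 (-0.64 in its other probe set) and Ep400 at -0.22. Over the whole list 12 genes lay below 0 and 14 above it. These genes were also picked for their roles after their values were seen, and 17 of the 26 lay below the median of all genes and 9 above it.

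Replication-dependent histones are made while DNA is copied, so genes of DNA replication were given as a second list. Of 22 found, 21 were compared, 0 were 2-fold off, and the median log2 ratio was 0.14, with 13 genes higher and 8 lower than the median over all genes. The brightest were Pcna, the sliding clamp of DNA polymerase, at 0.00, and Mcm7, of the replicative helicase, at -0.04. The ratio of H2ac19, the member farthest from 0, was below those of all 21 replication genes, which ran from -0.26 to 0.64. The other compared replication-dependent genes, H1f2 at -0.01 and H2bc22 at 0.29, lay inside that range.

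Genes for the replacement of histones in spermatids gave few readable signals at this age. Of 10 found, 6 were compared, 1 was at least 2-fold lower, 1 at least 2-fold higher and 4 lay between, with a median of -0.30. Among all compared genes 3.52% were lower and 0.346% higher by that measure. Brdt, a bromodomain reader of acetylated histones in germ cells, had 155.2 on the UBR2-/- array and 330.9 on the wild type array, a log2 ratio of -1.09, but -0.32 in its other probe set. The protamine gene Prm1 was dim, with 94.0 on the UBR2-/- array and 35.3 on the wild type array, a log2 ratio of 1.41 in a range of 0.35 to 1.55 over its 3 probe sets. The brightest were Hspa2, a chaperone of spermatocytes and spermatids, at -0.90, and Psme4, a proteasome activator with a part in histone loss, at -0.39. Hspa2 is also among the spermatocyte markers given below, where its ratio is the median, so the lists are not separate. The genes Tnp1, Tnp2, Prm2 and Prm3 were below the floor on both arrays.

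**Figure D4:**
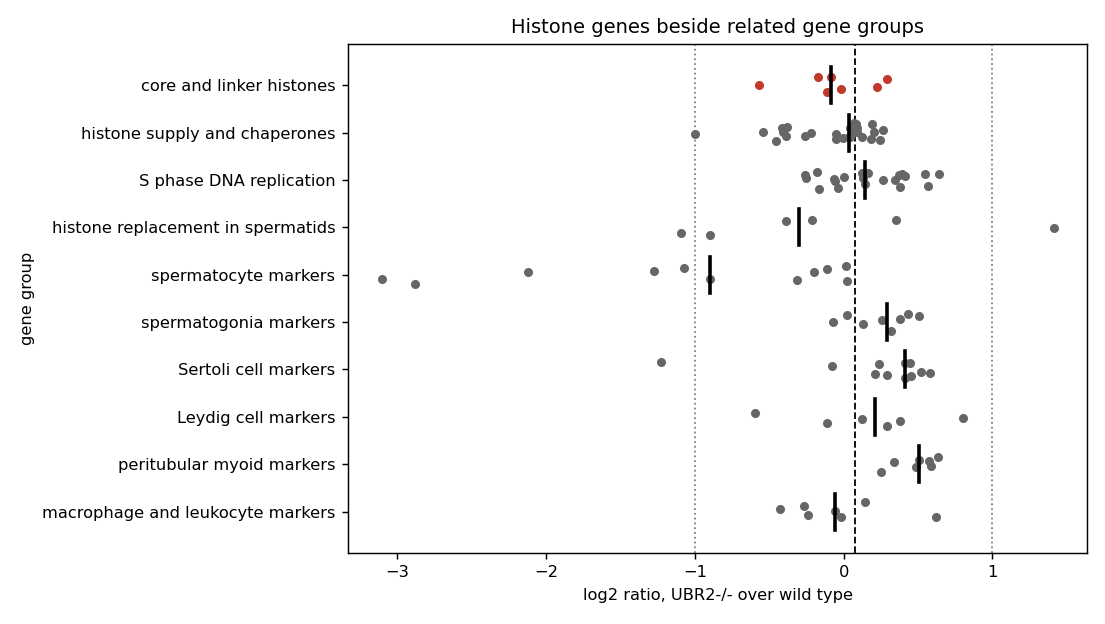
Log2 ratios (UBR2-/- over wild type) of compared genes in the histone set, in related gene groups and in cell type marker groups, with 1 point per gene, vertical scatter for visibility only and a black bar at each median; the dashed line is the median of all compared genes and dotted lines mark 2-fold. The histones (median -0.08) lie near the supply genes (0.04), while spermatocyte markers spread to the left, down to -3.11, with a median of -0.90, or -0.31 without Pgk2 and Ccna1. Hspa2 is a point both in the histone replacement group and among the spermatocyte markers.

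Marker genes of the testis cell types differed between the arrays, and in a whole testis fewer cells of a type and less RNA per cell cannot be told apart. Of 11 compared spermatocyte markers 5 were 2-fold or more lower on the UBR2-/- array (Ldhc, Piwil1, Pgk2, Spo11 and Ccna1), against 3.52% of all compared genes. The 11 summed to 9002 on the UBR2-/- array and 14323 on the wild type array, with a median log2 ratio of -0.90. Sums follow the bright genes. Ldhc had 430.5 on the UBR2-/- array and 3709.3 on the wild type array, and Sycp3 had 2954.7 and 2904.1 in the same order. Pgk2 (4.1 on the UBR2-/- array and 107.4 on the wild type array) and Ccna1 (9.3 on the UBR2-/- array and 52.0 on the wild type array) were compared only through the wild type array, and without them 3 of 9 were 2-fold or more lower and the median was -0.31. Relative to all genes the median of the list was -0.98, and -0.37 with the floor at the 60th percentile. The 8 compared spermatogonia markers, none 2-fold off, summed to 6009 on the UBR2-/- array and 5126 on the wild type array, with a median of 0.29. The 11 Sertoli cell markers summed to 11609 on the UBR2-/- array and 8982 on the wild type array, with a median of 0.41 and 1 member, Amh, at least 2-fold lower. Clu made up most of both sums, with 7075.9 on the UBR2-/- array and 5186.1 on the wild type array. The 7 peritubular myoid markers summed to 3685 on the UBR2-/- array and 2564 on the wild type array, with a median of 0.50. Of these, Des (34.6 on the UBR2-/- array and 21.2 on the wild type array) was compared only through the UBR2-/- array. Without Des the median was 0.53 over 6 genes. Leydig cell markers had a median of 0.21 over 6 genes, and macrophage and leukocyte markers -0.06 over 7 genes, with none 2-fold off in either list. Ptprc (37.6 on the UBR2-/- array and 20.9 on the wild type array) was also compared only through the UBR2-/- array. Without Ptprc the macrophage and leukocyte median was -0.15 over 6 genes. By log2 ratio, the brightest 2 genes of each list were Sycp3 (0.02) and Sycp1 (-0.11) for spermatocytes, Dazl (0.13) and Dmrt1 (0.26) for spermatogonia, and Clu (0.45) and Inha (0.21) for Sertoli cells. They were Acta2 (0.49) and Mylk (0.57) for myoid cells, Hsd3b1 (0.29) and Cyp11a1 (-0.59) for Leydig cells, and Csf1r (-0.02) and Lyz2 (-0.27) for macrophages and leukocytes. The part of these shifts in the histone values was not tested. No compared marker was at a signal of 0 on either array, but Pgk2, Ccna1, Des and Ptprc were below the floor on 1 of them. Amh, at 25.5 on the UBR2-/- array, was just above the floor of 24.7.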

How the data were processed

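The authors deposited linear signal intensities for 2 arrays, 1 for UBR2-/- and 1 for wild type; MAS5 is named in the submitters' processing notes, with version, settings, detection calls and genome build not given in the sources used here. Deposited arrays had equal trimmed means (150.04 each, 2% cut from each end), and this scaling was kept. Of 22626 probe sets other than controls, 20380 carried a single gene symbol in an annotation that may be out of date, 691 carried several and 1555 none; 20351 matched the GRCm38.p6 table by Entrez identifier, and only single-symbol probe sets were used. From them the floor, the log2 ratio and the brightest probe set per gene were computed with Python 3.11.15 and pandas 2.3.3, and the steps were tested on simulated data. The number of arrays limits the precision. Members and lists were chosen with earlier results of these data known. Testis and variant histones, the brightest 2 replication-dependent genes, and of each other list the brightest 2 and those 2-fold off were named by rule; other genes were chosen after their values were seen. Alternatives were 4 scalings, 3 floors, 2 treatments of probe sets and 2 thresholds.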

Additional observations from a re-analysis of the deposited data

How the results depend on the processing

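The counts of 0 histone genes lower and 0 higher held under all 11 alternatives, which include thresholds of 1.5-fold and 3-fold in place of 2-fold. Not all could have raised them. A count of 0 at 3-fold follows from 0 at 2-fold. Floors at the 25th and 60th percentiles left the ratios of the kept genes unchanged, and a pseudocount only draws ratios toward 0. Leaving out probe sets by kind covered only 3 genes. Spike-in scaling could raise the count of lower genes, and brought H2ac19 to a log2 ratio of -0.92, short of 2-fold. Spike-in scaling, on 42 control probe sets with a median log2 ratio of 0.35, moved the median of all genes by -0.35 and that of the histone genes to -0.44. Relative to all genes the histone median moved by less than the disagreement of bright probe sets (0.14) under each scaling, floor and treatment of probe sets. Scaling to the array median or to the spike-in controls multiplies an array by 1 factor, which nearly cancels in that difference. These scalings could therefore hardly move it. Spike-in scaling gave 528 genes 2-fold lower and 7 higher over the whole array, where the deposited scale gave 285 and 28. Why the spike-in controls differed between the arrays was not tested. A floor at the 60th percentile gave 152 lower and 8 higher, a floor at the 25th percentile 132 higher, and a pseudocount of 10 gave 17 higher. At 1.5-fold 624 genes were lower and 344 higher, and at 3-fold 121 and 3. Leaving out the probe sets of the kinds _s_at, _x_at and _a_at left 3 compared histone genes (H2ac19, H2ax and H1f10). The median of the replication-dependent genes relative to all genes, -0.09, came to -0.36 under the higher floor, which leaves out H2bc22, and -0.65 without those probe sets, where H2ac19 alone was left, so it rests on which of 3 genes are kept. The median of the spermatocyte markers relative to all genes, -0.98, was -0.37 under the higher floor and -0.39 without the genes at the floor on 1 array, an alternative chosen after seeing the data. No paired analysis was possible because each genotype has 1 array, and no replicate could be left out.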

Other observations

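Histone genes on the array whose symbols fall outside the naming rule were listed after their values were seen, 9 in all, of which 6 were bright enough to be compared and 0 were 2-fold off. Macroh2a1, the gene of a large H2A variant with an added macrodomain, had 338.7 on the UBR2-/- array and 372.6 on the wild type array, a log2 ratio of -0.14. Macroh2a3 had 11.0 on the UBR2-/- array, below the floor, and 38.5 on the wild type array, which makes it at least 1.56-fold lower. Cenpa, the H3 variant of centromeres, had 207.0 on the UBR2-/- array and 147.3 on the wild type array, a log2 ratio of 0.49. The H2A genes H2aj and H2aw had 0.34 and -0.08, and Macroh2a2, close to the floor, had 0.18. The spermatid histone genes Hils1, H2al2a and H2ap were below the floor on both arrays.

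A further 19 probe sets list several genes with at least 1 histone of the rule among them, and were left out since they name no single gene. Of these, 13 were above the floor rule, 0 were at least 2-fold lower and 1 was at least 2-fold higher (among all compared genes 0.346% were), and the median log2 ratio of the 13 was -0.03. That 1 probe set was compared only through the UBR2-/- array, and of the 12 above the floor on both arrays 0 were 2-fold off in either direction. The 7 for variant histones ran from -0.41 to 0.14, with signals of 347.1 to 3963.7 on the UBR2-/- array and 460.9 to 3608.3 on the wild type array. Of the 6 for replication-dependent histones, the 5 above the floor on both arrays ran from -0.49 to 0.46. The remaining one listed 10 genes and had 55.9 on the UBR2-/- array and 21.5 on the wild type array, below that array's floor, which makes it at least 2.29-fold higher. The lowest listed 3 genes and had 191.7 on the UBR2-/- array and 268.8 on the wild type array, so the sharing probe sets, like the single-gene ones, lay on both sides of 0.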
